A study of Mus musculus with 6 samples.

Results

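The genes described here are the 49 central carbon genes of glycolysis (21), the pentose phosphate pathway (7), the pyruvate dehydrogenase step (5) and the citrate cycle (16), taken by symbol from the 23284 genes counted in each library. They were measured by polyadenylated RNA sequencing in erythroblasts, which are nucleated red cell precursors, of C57BL/6 mice at E10.5. Setd8 encodes the methyltransferase that monomethylates histone H4. The 3 null libraries were labelled SETD8fl/fl EpoR Cre, that is, floxed Setd8 alleles with Cre recombinase driven from the erythropoietin receptor locus, which is active in the erythroid lineage. Of the 3 control libraries, replicates 1 and 3 were labelled Setd8 +/+ EpoRCre, with Cre and wild-type Setd8, and replicate 2 was labelled Setd8 fl/fl EpoR WT, with floxed alleles and no Cre. The sort kept live cells that carried both Ter119, found on the surface of red cells, and the transferrin receptor CD71. The series design names fetal blood as the source, whereas the sample labels name fetal liver. No label says whether a library held 1 embryo or a pool, and the spread behind the p-values is that of these libraries and may be technical in part.

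Glycolysis splits glucose into pyruvate and makes ATP without oxygen, and mature red cells, which lose their mitochondria, rely on it. A side branch of it makes bisphosphoglycerate, which lowers the oxygen affinity of adult haemoglobin. The pentose phosphate pathway draws on the same glucose to make NADPH, which keeps glutathione reduced, and ribose for nucleotides. Pyruvate dehydrogenase passes pyruvate to the citrate cycle in the mitochondria, where succinyl-CoA, the starting substrate of heme synthesis, is made.

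The libraries held 7756940 to 21434719 gene counts, and globin genes took 26.5 to 39.9% of the counts in null libraries and 37.1 to 45.2% in control libraries. The titles split the libraries into an unlettered set (null replicate 1 with control replicates 1 and 2) and a set with a trailing letter (null replicates 2 and 3 with control replicate 3). Levels are given as CPM, counts relative to library size scaled by TMM factors, and the log2 ratios, called set-adjusted, come from a fit across 10512 genes that holds group and title set. Setd8 stood at 48.9, 100.3 and 96.3 CPM in null replicates 1, 2 and 3, against 73.9, 74.8 and 203 CPM in control replicates 1, 2 and 3. Set-adjusted, the fall was 0.83 on the log2 scale, a log2 ratio of -0.83 (SE 0.17, edgeR adjusted p = 0.00911; 0.702 with group alone). The groups overlapped when pooled, as null replicates 2 and 3 lay above control replicates 1 and 2 of the other title set. Setd8 was higher in lettered than in unlettered libraries (log2 ratio 1.23, edgeR adjusted p = 2.09e-04). Gene counts can include reads outside the floxed part. Erythroid markers other than the adult alpha globins were counted in every library. Of the 12 tested erythroid markers, 3 fell and the others did not pass. Tfrc, which encodes the CD71 used in the sort, stood at 192, 273 and 266 CPM in null libraries, against 398, 435 and 443 CPM in control libraries, with no overlap (log2 ratio -0.92, edgeR adjusted p = 0.00363). Epor, the erythropoietin receptor gene whose locus carries Cre (log2 ratio -1.08, edgeR adjusted p = 0.0313), and the embryonic globin gene Hba-x (log2 ratio -0.60, edgeR adjusted p = 0.0434) fell as well. For Epor and Hba-x the groups overlapped when pooled. Alas2, the first enzyme of heme synthesis in erythroid cells, had a log2 ratio of 0.09 (edgeR adjusted p = 0.734). The part of these differences in the members' values was not tested. The adult alpha globin genes were close to 0, with at most 0.257 CPM for Hba-a2.

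In null erythroblasts 8 of 19 tested glycolytic genes rose and 1 fell, and 3 of 7 pentose phosphate genes rose. Of 16 citrate cycle genes 2 rose and 1 fell, and 0 of 5 pyruvate dehydrogenase genes passed in either direction. The pathways were not tested against each other, and in each of them more genes did not pass than rose. Of the 49 members, 47 had enough reads to be tested. Of these, 13 rose, or 27.7%, where 8.65% of all tested genes rose, and 2 fell, or 4.26%, where 4.16% of all tested genes fell (edgeR quasi-likelihood, adjusted p under 0.05). The median log2 ratio was 0.21 over the tested members and 0.04 over all tested genes. The 3 null libraries all lay above the 3 controls for 13 tested members, or 27.7%, against 14.9% of all tested genes, and all below for 2, or 4.26%, against 9.16%. Ldhb and Aldoc passed the filter on low counts through the null libraries, so that they could be tested only because they were higher there. Both are among the 13 members whose null libraries all lay above the controls, and Ldhb is among the 13 that rose. Of the 45 members with enough reads in both groups, 12 rose, or 26.7%, and 2 fell, or 4.44%. The shares of all tested genes, 8.65% and 4.16%, were not recounted for genes with enough reads in both groups. Hk3 and Eno2 had too few reads to be tested. With group as the only term, 1 member rose and 0 fell, where 1.14% of all genes rose and 0.00951% fell. That member was Ldhb, so 0 of the 45 members with enough reads in both groups passed in that fit. At an unadjusted p under 0.05 it had 8 members higher, Ldhb and Aldoc among them, and 1 lower. At the same threshold 1116 of all 10512 tested genes were higher and 525 lower. In bulk RNA a change in the mix of cells and a change in RNA per cell cannot be told apart.

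**Figure D1:**
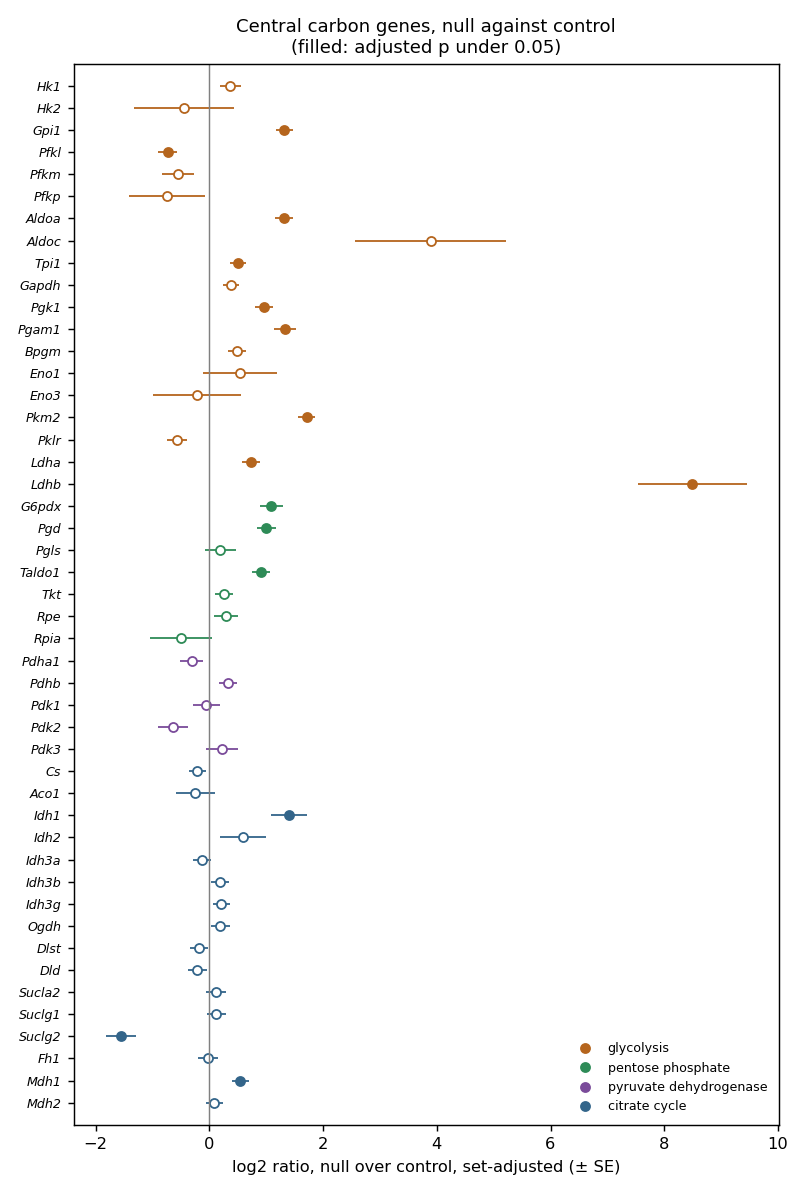
Set-adjusted log2 ratios of null over control with their SE for the 47 tested members, in pathway order and coloured by pathway; filled points passed at an adjusted p under 0.05. Glycolysis holds 8 filled points to the right of 0 and pentose phosphate 3, and Ldhb stands apart at 8.49, a value that depends on the prior count.

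Summed over its genes, glycolysis took a larger share of the counts outside the globins in every null library. It reached 1.21, 1.14 and 1.12% in null replicates 1, 2 and 3, against 0.815, 0.889 and 0.761% in control replicates 1, 2 and 3. The pentose phosphate genes summed to 0.200, 0.226 and 0.221% in null libraries, against 0.139, 0.148 and 0.146% in control libraries, and the groups did not overlap for either pathway. The citrate cycle genes summed to 0.355, 0.366 and 0.399% in null libraries, against 0.415, 0.414 and 0.372% in control libraries. The pyruvate dehydrogenase genes summed to 0.0473, 0.0704 and 0.0708% in null libraries, against 0.0602, 0.0564 and 0.0639%. In these last pathways the groups overlapped. On the TMM-scaled CPM scale the ratio of group means, null over control, was 1.48 for glycolysis, 1.56 for pentose phosphate, 1.08 for pyruvate dehydrogenase and 0.973 for the citrate cycle. These ratios pool the title sets, which hold unequal numbers of null and control libraries. Within the unlettered and then the lettered set the ratio was 1.68 and 1.52 for glycolysis and 1.65 and 1.57 for pentose phosphate. For pyruvate dehydrogenase it was 0.964 and 1.13, and for the citrate cycle 1.02 and 1.05. These sums are carried by the most abundant genes and were not tested.

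**Figure D2:**
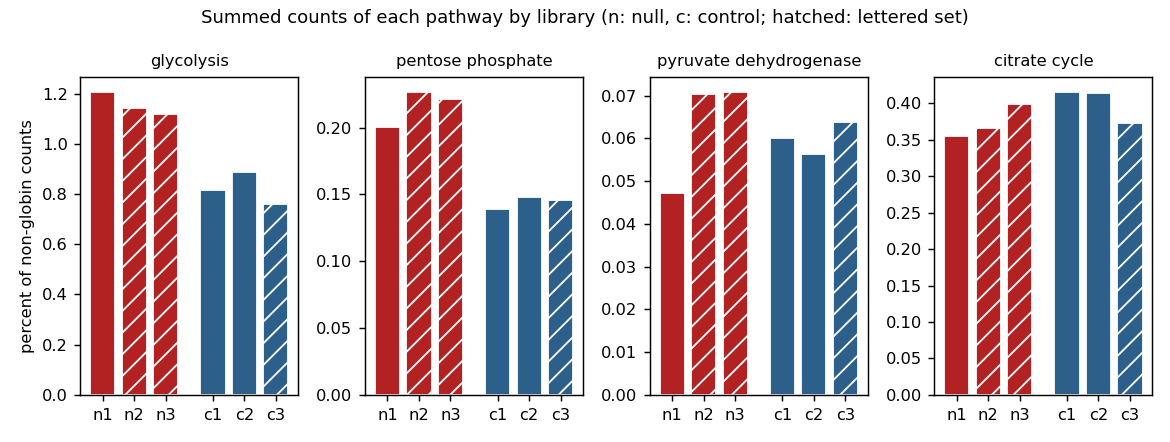
Summed counts of the genes of each pathway as a percentage of the counts outside globin genes, 1 bar per library, with null libraries in red left of control libraries in blue and the lettered title set hatched. The 3 null bars lie between 1.12 and 1.21% for glycolysis and the 3 control bars between 0.761 and 0.889%, and the citrate cycle bars overlap.

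The entry steps of glycolysis did not move together. Hk1, the hexokinase that phosphorylates glucose and the main form in red cells, stood at 79.3, 69.8 and 60.7 CPM in null libraries, against 70.4, 61.5 and 47.1 CPM in control libraries. Its groups overlapped (log2 ratio 0.37, SE 0.19, edgeR adjusted p = 0.239). Hk2, the hexokinase of muscle and growing tissue, had 2.92, 0.513 and 0.672 CPM in null libraries, against 4.74, 4.37 and 0.698 CPM in control libraries. The higher values of Hk2 lay in the unlettered libraries of both groups, and it did not pass (log2 ratio -0.44, SE 0.89, edgeR adjusted p = 0.794). Hk3 had 5, 1 and 3 reads in null libraries, against 12, 4 and 1 reads in control libraries. Gpi1, which turns glucose phosphate into fructose phosphate, stood at 277, 220.4 and 222 CPM in null replicates 1, 2 and 3, against 106, 113 and 89.99 CPM in control replicates 1, 2 and 3. The lowest null library stood well above the highest control. Gpi1 rose by 1.32 on the log2 scale, a 2.50-fold change (SE 0.15, edgeR adjusted p = 2.56e-04).

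Phosphofructokinase, which adds the second phosphate and commits the sugar to glycolysis, was the glycolytic step with a gene that fell. The liver type, Pfkl, stood at 102, 164 and 172 CPM in null replicates 1, 2 and 3, against 197, 203 and 237 CPM in control replicates 1, 2 and 3. All null libraries lay below all control libraries, and Pfkl fell by 0.73 on the log2 scale (SE 0.17, edgeR adjusted p = 0.0155). The muscle type, Pfkm, had 31.4, 35.99 and 54.7 CPM in null libraries, against 48.2, 71.9 and 50.97 CPM in control libraries, with null replicate 3 inside the control range. It did not pass (log2 ratio -0.55, SE 0.29, edgeR adjusted p = 0.239). The platelet type, Pfkp, had 8.88, 7.29 and 3.26 CPM in null libraries, against 40.5, 8.52 and 5.39 CPM in control libraries. Control replicate 1, the shallowest library, was the high one, and Pfkp did not pass (log2 ratio -0.75, edgeR adjusted p = 0.523). The within-library log2 ratio of Pfkm to Pfkl differed between the groups by 0.18 (exact permutation within title sets, p = 0.556).

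Aldolase A, Aldoa, which cleaves the sugar into a pair of triose phosphates, stood at 2142, 716 and 587 CPM in null libraries, against 768, 887 and 272 CPM in control libraries. The unlettered libraries were the high ones in each group, and the groups overlapped when pooled. The log2 difference was 1.38 among unlettered and 1.25 among lettered libraries, and set-adjusted Aldoa rose by 1.32 on the log2 scale (SE 0.16, edgeR adjusted p = 3.32e-04; 0.619 with group alone). Aldoc, the aldolase best known from brain, had 83, 217 and 12 reads in null libraries, against 4, 0 and 11 reads in control libraries. The null libraries lay above the control libraries on the CPM scale, at 4.85, 11.1 and 0.620 CPM against 0.593, 0 and 0.512 CPM, but null replicate 3 lay close to control replicates 1 and 3. Aldoc did not pass (log2 ratio 3.89, SE 1.33, edgeR adjusted p = 0.0803).

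From triose phosphate to phosphoglycerate, Tpi1 and Pgk1 rose and Gapdh, between them, did not pass. Tpi1, which interconverts the triose phosphates, stood at 426, 658 and 586 CPM in null libraries, against 302, 315 and 429.5 CPM in control libraries. The lettered libraries were the high ones in each group, and Tpi1 rose by 0.50 on the log2 scale (SE 0.15, edgeR adjusted p = 0.0443). Gapdh, the dehydrogenase that makes the first high-energy phosphate, stood at 980.1, 935 and 895 CPM in null libraries, against 748, 809 and 680.2 CPM in control libraries. Its groups did not overlap, yet it did not pass (log2 ratio 0.38, SE 0.14, edgeR adjusted p = 0.108). Pgk1, which makes ATP at the following step, stood at 395, 262 and 221 CPM in null libraries, against 222, 198 and 119 CPM in control libraries. Null replicate 3 lay just under control replicate 1, of the other title set, and set-adjusted Pgk1 rose by 0.96 on the log2 scale (SE 0.16, edgeR adjusted p = 0.00243).

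Both members from the mutase family, Pgam1 and Bpgm, lay higher in all null libraries, and Pgam1 passed the test. Pgam1, the phosphoglycerate mutase of glycolysis, stood at 95.9, 166 and 144 CPM in null replicates 1, 2 and 3, against 30.4, 42.8 and 63.9 CPM in control replicates 1, 2 and 3. The groups did not overlap, and Pgam1 rose by 1.33 on the log2 scale, 2.52-fold (SE 0.19, edgeR adjusted p = 0.00114). Its paralog Bpgm, which makes bisphosphoglycerate in red cells, stood at 1578, 1427 and 1316 CPM in null libraries, against 962, 954 and 1148 CPM in control libraries. All null libraries lay above all control libraries, but Bpgm did not pass (log2 ratio 0.49, SE 0.15, edgeR adjusted p = 0.0588). Within a library the log2 ratio of Bpgm to Pgam1 was 4.04, 3.10 and 3.19 in null libraries, against 4.98, 4.48 and 4.16 in control libraries. It was lower in all null libraries, with a difference of -0.85 within the title sets (exact permutation p = 0.111, adjusted over 15 pairs 0.238). The 9 arrangements of the libraries within title sets cannot give an exact p under 0.111, so no pair can pass this test. The smallest p it allows was reached by 7 of the 15 pairs. Some of the 15 pairs share a gene, and no conclusion is drawn from this count.

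Enolase was hardly counted. Eno1, the general form, had 136, 31 and 34 reads in null libraries, against 45, 97 and 23 reads in control libraries. Gm5506, listed by RefSeq as Eno1b, a near-identical copy of Eno1 that was looked up after the low value of Eno1 was seen, had 37, 15 and 15 reads in null libraries, against 10, 19 and 14 reads in control libraries. Reads that fit both copies equally well cannot be assigned to either, so the Eno1 level here is uncertain. Eno3, the muscle form, had 1.93, 6.67 and 3.51 CPM in null libraries, against 4.74, 1.76 and 4.28 CPM in control libraries, and Eno2, the neuronal form, had 8, 3 and 25 reads in null libraries, against 0, 4 and 4 reads in control libraries. Neither Eno1 (log2 ratio 0.53, edgeR adjusted p = 0.650) nor Eno3 (log2 ratio -0.22, edgeR adjusted p = 0.888) passed. Processed copies are known for Gapdh, Aldoa, Tpi1, Pgk1, Pgam1 and Ldha as well, and no label says how shared reads were divided.

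Of the genes for pyruvate kinase, the last ATP-making step, Pkm2 rose and Pklr just missed the threshold on the lower side. The gene listed as Pkm2, now Pkm, encodes the M1 and M2 isozymes, of which M2 is that of most embryonic and proliferating cells. Gene counts do not separate M1 from M2. Pklr encodes the liver and red cell isozymes. Pkm2 stood at 778, 518 and 527 CPM in null replicates 1, 2 and 3, against 198, 244 and 172 CPM in control replicates 1, 2 and 3. The groups were far apart, and Pkm2 rose by 1.71 on the log2 scale, 3.27-fold (SE 0.16, edgeR adjusted p = 6.37e-05; 0.0638 with group alone). Pklr had 239, 164 and 120 CPM in null libraries, against 392, 398 and 189 CPM in control libraries. It was lower in null cells within each title set, by a log2 difference of -0.72 in the unlettered and -0.43 in the lettered libraries, and missed the threshold (log2 ratio -0.57, SE 0.17, edgeR adjusted p = 0.0543). It passed in 6 of 13 alternative fits and not in the others, with adjusted p from 0.00984 by DESeq2 to 0.351 by edgeR without null replicate 1.

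The order of the isozyme genes differed between the groups. The log2 ratio of Pkm2 to Pklr was 1.70, 1.66 and 2.13 in null libraries, against -0.99, -0.71 and -0.13 in control libraries, a difference of 2.29 within the title sets (exact permutation p = 0.111, the smallest possible). Per kilobase of exon, Pkm2 had a mean of 122 CPM per kb in null cells and 40.9 in control cells. Pklr had a mean of 53.9 CPM per kb in null cells and 101 in control cells. On that per-length scale Pkm2 lay above Pklr in all 3 null libraries and below it in all 3 control libraries. Lengths are exon unions of GENCODE M21, since no label names the authors' gene models. The promoters of both genes are shown for this contrast, 250 bases before to 50 bases after the start in RefSeq's GRCm38.p6. Capitals mark the hypoxia response core ACGTG or its reverse complement in Pkm, and the GATA core AGATAA in Pklr, whose upstream promoter, shown here, is the one known for the red cell isozyme. The Pkm promoter lies at chr9:59656977-59657276 on the plus strand and the Pklr promoter at chr3:89135892-89136191 on the plus strand.
Pkm: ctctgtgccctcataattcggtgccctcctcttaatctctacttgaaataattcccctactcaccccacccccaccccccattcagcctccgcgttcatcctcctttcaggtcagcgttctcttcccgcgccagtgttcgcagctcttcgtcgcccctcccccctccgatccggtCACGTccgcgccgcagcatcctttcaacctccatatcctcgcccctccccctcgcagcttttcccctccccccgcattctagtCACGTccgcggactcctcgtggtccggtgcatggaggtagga
Pklr: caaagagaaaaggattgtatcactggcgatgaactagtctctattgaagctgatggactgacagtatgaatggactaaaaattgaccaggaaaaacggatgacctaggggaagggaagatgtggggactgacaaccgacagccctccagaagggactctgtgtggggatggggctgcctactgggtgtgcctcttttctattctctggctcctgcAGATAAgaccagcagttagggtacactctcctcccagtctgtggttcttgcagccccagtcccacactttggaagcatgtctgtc

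Lactate dehydrogenase regenerates the cofactor that Gapdh uses. Ldha, the M subunit gene, stood at 1883, 1586 and 1546 CPM in null libraries, against 1038, 1324 and 898 CPM in control libraries. The groups did not overlap, and Ldha rose by 0.74 on the log2 scale, 1.67-fold (SE 0.16, edgeR adjusted p = 0.0106). Ldhb, the H subunit gene, had 200, 214 and 144 reads in null replicates 1, 2 and 3, against 0, 0 and 1 reads in control replicates 1, 2 and 3. That is 11.7, 10.99 and 7.44 CPM in null libraries, against 0, 0 and 0.0465 CPM in control libraries. Ldhb was counted in every null library and by a total of 1 read in the controls, and it could be tested only through its null libraries. The ratio of null to control reads was 469, with an exact 95% binomial interval of 83.9 to 18563 that covers counting error only (edgeR adjusted p = 2.53e-04, and 0.0142 with group alone). Even so Ldhb stayed a small part of the enzyme's transcripts. The mean was 6.39 CPM per kb for Ldhb and 505 CPM per kb for Ldha in null cells. The log2 ratio of Ldhb to Ldha was -7.32, -7.16 and -7.68 in null libraries, against -13.12, -13.47 and -12.43 in control libraries, where it rests on the prior count of 2. The promoters of both genes are shown because one gene was counted in all libraries and the other nearly only in null cells. Capitals mark ACGTG or its reverse complement, and adjoining matches that form CACGTG, the E-box, run together. The Ldha promoter lies at chr7:46845554-46845853 on the plus strand and the Ldhb promoter at chr6:142507908-142508207 on the minus strand (GRCm38.p6).
Ldha: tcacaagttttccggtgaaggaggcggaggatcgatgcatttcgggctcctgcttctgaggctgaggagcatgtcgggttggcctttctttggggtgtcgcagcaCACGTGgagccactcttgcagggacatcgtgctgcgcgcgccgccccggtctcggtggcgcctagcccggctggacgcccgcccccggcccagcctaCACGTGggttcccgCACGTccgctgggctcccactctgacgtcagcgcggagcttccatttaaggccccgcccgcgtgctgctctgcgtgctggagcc
Ldhb: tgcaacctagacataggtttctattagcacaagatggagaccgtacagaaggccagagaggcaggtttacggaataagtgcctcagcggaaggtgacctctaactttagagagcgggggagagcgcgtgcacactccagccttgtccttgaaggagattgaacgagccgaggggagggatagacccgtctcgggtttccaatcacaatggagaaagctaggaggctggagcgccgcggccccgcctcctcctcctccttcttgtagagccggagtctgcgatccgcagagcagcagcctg

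Pkm, Pklr and Ldha each have 2 windows in the RefSeq table. The window shown was chosen after the motif search, and the other window of each gene held 0 matches to the motif marked. The Ldha window shown held 5 matches to ACGTG over both strands, 4 of them in 2 E-boxes, the Pkm window shown held 2 matches, and the Ldhb and Pklr windows held 0. Promoters were found by symbol for 48 of the 49 members, as 69 windows of 300 bases. Of these, 36.2% held ACGTG, against 19.6% of all 32851 windows in the table. For the other motifs searched on both strands, the share among member windows was 8.70% for CACGTG, against 7.15% of all windows, and 14.5% for TGACNNNGC, the antioxidant response core bound by NRF2, against 12.4%. AGATAA was found in 8.70% of member windows, against 11.2% of all windows, and CCNCNCCC, a box bound by Kruppel-like factors, in 73.9%, against 49.5%. CACGTG contains ACGTG, so these counts overlap. The median GC content was 60% in member windows and 52.7% in all windows. Split by call, the share was 42.1% of the 19 windows of members that rose for ACGTG, against 34.8% of the 46 windows of members not called. For CCNCNCCC it was 94.7%, against 65.2%, for TGACNNNGC 21.1%, against 13.0%, for CACGTG 5.26%, against 10.9%, and for AGATAA 0%, against 13.0%. The shares count windows and not genes, so a gene with several starts counts more than once. Some windows of 1 gene overlap, as for Aldoa and Ogdh, and all windows of Ogdh, a member not called, held ACGTG. None of the shares was tested. These matches describe letters in a window and not bound sites.

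**Figure D3:**
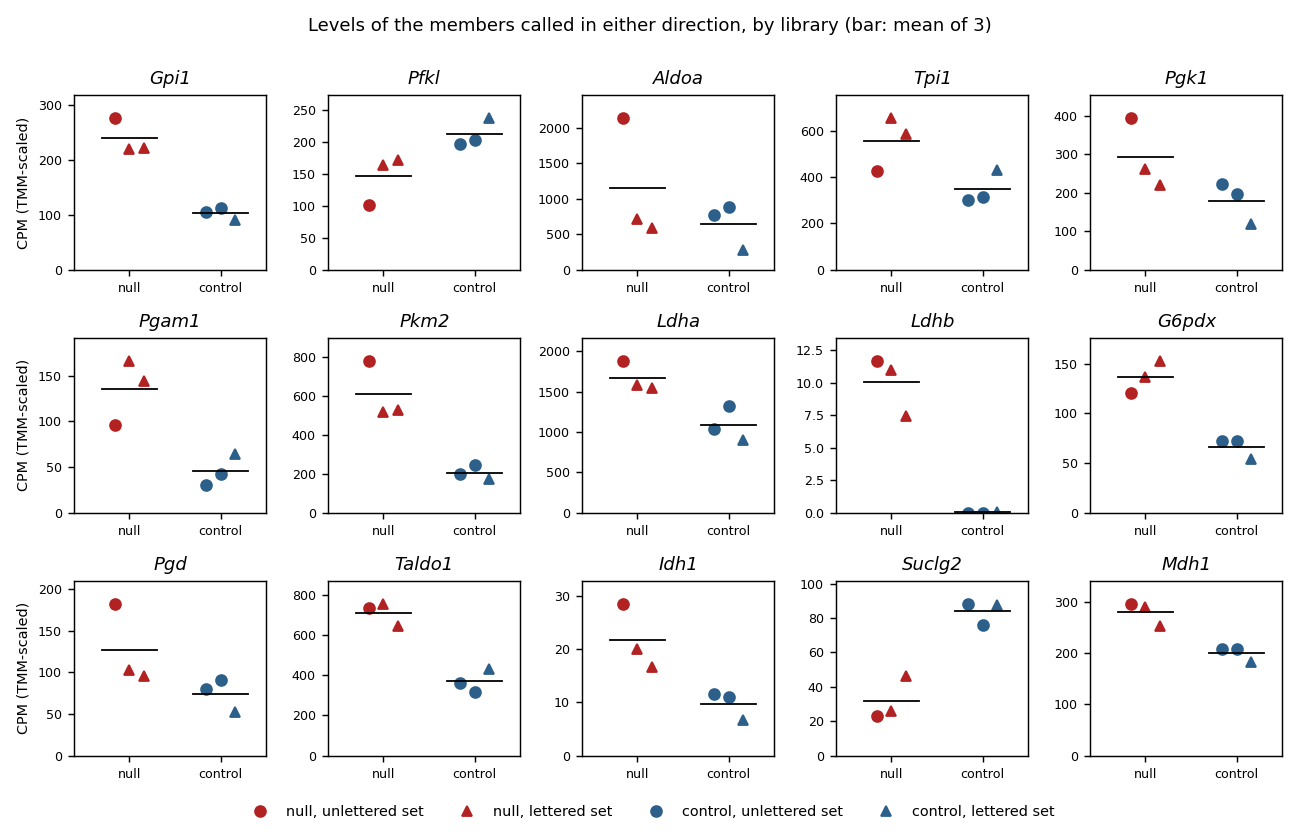
TMM-scaled CPM in each library for the 15 members called in either direction, null libraries left of control libraries, circles for the unlettered and triangles for the lettered title set, bars for the mean of 3. Null and control libraries are apart for 12 of the 15 genes, and for Aldoa, Tpi1 and Pgk1 they overlap.

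In the pentose phosphate pathway the dehydrogenases and transaldolase rose. G6pdx, the X-linked glucose phosphate dehydrogenase that opens the pathway and makes NADPH, stood at 121, 136 and 153 CPM in null replicates 1, 2 and 3, against 71.9, 72.00 and 53.8 CPM in control replicates 1, 2 and 3. The groups did not overlap, and G6pdx rose by 1.09 on the log2 scale, 2.12-fold (SE 0.20, edgeR adjusted p = 0.00492). Pgd, the phosphogluconate dehydrogenase that makes the next NADPH, stood at 182, 103 and 95.1 CPM in null libraries, against 79.7, 90.5 and 52.8 CPM in control libraries. It rose by 1.001 on the log2 scale (SE 0.17, edgeR adjusted p = 0.00278), with null replicate 3 only a little above control replicate 2. Taldo1, transaldolase of the non-oxidative branch, stood at 734, 758 and 649 CPM in null libraries, against 364, 315 and 430.2 CPM in control libraries, and rose by 0.91 on the log2 scale (SE 0.16, edgeR adjusted p = 0.00390).

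The remaining pentose phosphate genes did not pass. Tkt, transketolase, had 397, 269 and 274 CPM in null libraries, against 308, 399 and 215 CPM in control libraries (log2 ratio 0.25, edgeR adjusted p = 0.342). Rpe, the ribulose phosphate epimerase, had a log2 ratio of 0.30 (edgeR adjusted p = 0.402) and Rpia, the ribose phosphate isomerase, one of -0.51 (edgeR adjusted p = 0.602) at a mean of 4.40 ± 3.15 CPM in null cells and 7.21 ± 1.84 CPM in control cells (SD, n = 3 each). Pgls, the lactonase between the dehydrogenases, had 4.21, 63.97 and 62.3 CPM in null libraries, against 2.82, 4.85 and 51.9 CPM in control libraries. Its level followed the title set and not the group, with a log2 ratio of lettered over unlettered libraries of 3.81 (edgeR adjusted p = 2.67e-06) and of null over control of 0.19 (edgeR adjusted p = 0.701).

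At the pyruvate dehydrogenase step, 0 of 5 genes passed by edgeR's quasi-likelihood test, and with group alone 0 had an unadjusted p under 0.05. With 8.65% of all tested genes higher and 4.16% lower, a list of 5 genes without a call does not stand out. Pdhb, the beta subunit of the complex, had 218, 199 and 172 CPM in null libraries, against 156, 176 and 154 CPM in control libraries (log2 ratio 0.33, edgeR adjusted p = 0.191), and Pdha1, the X-linked alpha subunit, had 102, 61.8 and 75.2 CPM in null libraries, against 178, 131 and 70.3 CPM in control libraries (log2 ratio -0.31, edgeR adjusted p = 0.369). The kinases that switch the complex off had larger ratios between title sets than between groups. Pdk3 had 6.60, 74.2 and 70.6 CPM in null libraries, against 6.97, 8.68 and 46.4 CPM in control libraries, Pdk2 8.41, 40.8 and 43.7 CPM, against 14.2, 17.9 and 54.2 CPM, and Pdk1 20.1, 53.2 and 48.02 CPM, against 23.9, 24.3 and 45.7 CPM. In each of them the lettered libraries held the high values of their group. Their log2 ratios of lettered over unlettered libraries were 2.999, 2.03 and 1.13, and those of null over control were 0.22, -0.64 and -0.05, with edgeR adjusted p of 0.667, 0.146 and 0.917 for null over control.

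In the citrate cycle 2 of 16 genes rose, or 12.5%, and 1 fell, or 6.25%, where 8.65% of all tested genes rose and 4.16% fell. Idh1, the cytosolic and peroxisomal isocitrate dehydrogenase that makes NADPH, stood at 28.6, 19.97 and 16.6 CPM in null libraries, against 11.6, 10.97 and 6.60 CPM in control libraries. The groups did not overlap, and Idh1 rose by 1.41 on the log2 scale, 2.65-fold (SE 0.31, edgeR adjusted p = 0.0140). Mdh1, the cytosolic malate dehydrogenase of the malate-aspartate shuttle, stood at 297, 291 and 254 CPM in null libraries, against 209, 209 and 183 CPM in control libraries, and rose by 0.54 on the log2 scale (SE 0.15, edgeR adjusted p = 0.0351), a call kept in 3 of 13 alternative fits. The mitochondrial Mdh2 had 523, 417 and 373 CPM in null libraries, against 492, 495 and 371 CPM in control libraries, with groups that overlapped (log2 ratio 0.09, SE 0.14, edgeR adjusted p = 0.745). The log2 ratio of Mdh2 to Mdh1 was 0.81, 0.52 and 0.55 in null libraries, against 1.23, 1.25 and 1.01 in control libraries, lower in every null library (exact permutation p = 0.111). Idh2, the mitochondrial NADPH-making isocitrate dehydrogenase, had 3.86, 46.2 and 35.3 CPM in null libraries, against 1.93, 4.74 and 20.6 CPM in control libraries. Its level followed the title set (log2 ratio of lettered over unlettered 2.97), and null against control did not pass (log2 ratio 0.60, SE 0.40, edgeR adjusted p = 0.374).

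Succinyl-CoA ligase, which uses up the succinyl-CoA that heme synthesis also draws on, was the citrate cycle step with a gene that fell. Suclg2, the beta subunit of the GTP-forming enzyme, stood at 22.8, 26.2 and 46.3 CPM in null replicates 1, 2 and 3, against 88.3, 75.8 and 87.3 CPM in control replicates 1, 2 and 3. The controls lay close together, every null library lay below them, and Suclg2 fell by 1.55 on the log2 scale (SE 0.27, edgeR adjusted p = 0.00341). The beta subunit of the ATP-forming enzyme, Sucla2, had 85.6, 121 and 111 CPM in null libraries, against 88.2, 93.9 and 92.3 CPM in control libraries, and did not pass (log2 ratio 0.12, SE 0.18, edgeR adjusted p = 0.715). The alpha subunit that both enzymes share, Suclg1, had a mean of 115 ± 30.2 CPM in null cells and 114 ± 8.80 CPM in control cells (SD, n = 3 each; log2 ratio 0.12, edgeR adjusted p = 0.684). Within a library the log2 ratio of Sucla2 to Suclg2 was 1.90, 2.20 and 1.26 in null libraries, against -0.002, 0.31 and 0.08 in control libraries. It was higher in every null library, by 1.70 within the title sets (exact permutation p = 0.111).

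**Figure D4:**
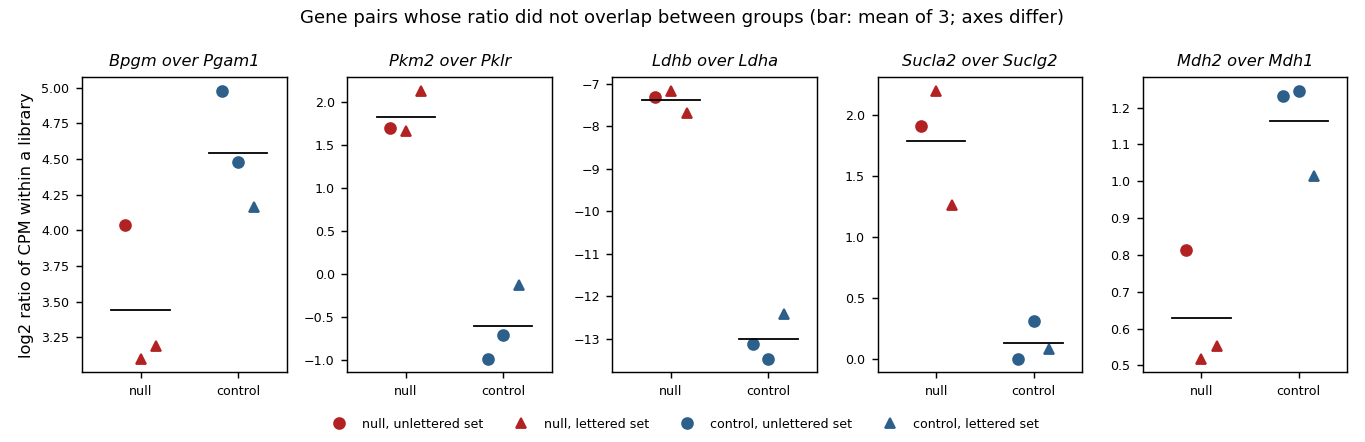
Within-library log2 ratios of CPM for the 5 gene pairs, of 15 compared, whose null and control libraries did not overlap, with null left of control, circles for the unlettered and triangles for the lettered title set, and bars for the mean of 3. Pkm2 over Pklr is above 1.6 in all null libraries and below 0 in all control libraries. Each of the 5 pairs holds a member called on the same libraries. The control values of Ldhb over Ldha rest on the prior count.

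The other citrate cycle genes had log2 ratios close to 0. Citrate synthase, Cs, had 343, 284 and 323 CPM in null libraries, against 446, 439 and 315 CPM in control libraries (log2 ratio -0.21, SE 0.16). The subunits of the NAD-linked isocitrate dehydrogenase had log2 ratios of -0.13 for Idh3a (SE 0.16), 0.19 for Idh3b (SE 0.16) and 0.21 for Idh3g (SE 0.16). The oxoglutarate dehydrogenase complex had 0.19 for Ogdh (SE 0.17), -0.18 for Dlst (SE 0.16) and -0.22 for Dld (SE 0.17), the last also a subunit of pyruvate dehydrogenase. Fumarase, Fh1, had -0.02 (SE 0.17), and Aco1, the cytosolic aconitase that also binds iron-responsive RNA elements, had -0.25 (SE 0.34). None of these passed, with edgeR adjusted p from 0.422 for Cs to 0.946 for Fh1.

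Each title set has libraries of both groups, so the null effect could be read in each. Of the 47 tested members, 40 had the same direction in both sets. The difference was above 0 in both for 27, where 36.2% of all tested genes were, and below 0 in both for 13, where 32.5% were. The 15 called members are among the 40, and being called makes this likely. Given as unlettered and then lettered, the log2 differences were 6.66 and 5.81 for Ldhb, 1.82 and 1.60 for Pkm2, and -1.84 and -1.32 for Suclg2. G6pdx had 0.75 and 1.42, and Taldo1 1.12 and 0.71. In a fit with the product of group and title set, 0 members had a null effect that differed between the sets by edgeR's quasi-likelihood test, 0 at an unadjusted p under 0.05, and 0 by DESeq2. With 2 residual degrees of freedom this fit called 1 of all 10512 genes, and 758 had an unadjusted p under 0.05 by edgeR.

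**Figure D5:**
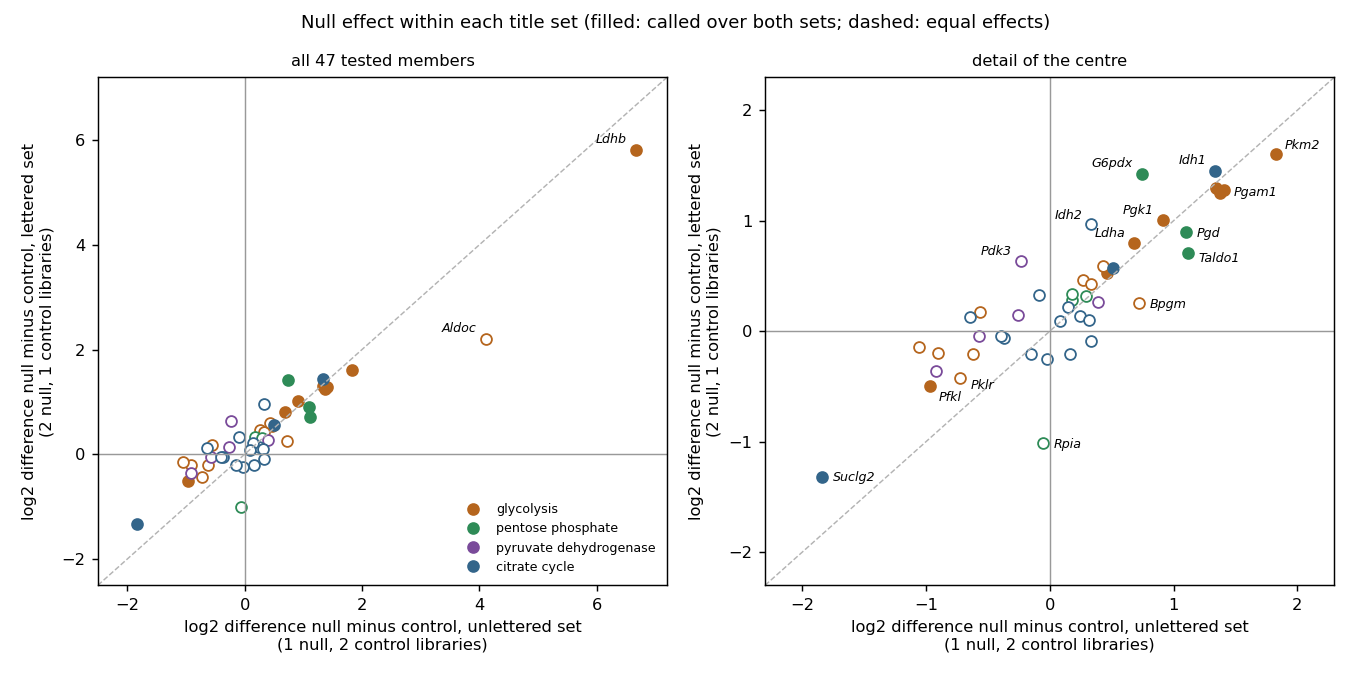
Log2 difference of null minus control in the unlettered set (horizontal axis) and in the lettered set (vertical axis) for the 47 tested members, coloured by pathway and filled where called, with the centre enlarged on the right. The filled points lie near the diagonal, with Ldhb at 6.66 and 5.81, and Suclg2 and Pfkl are the filled points below 0 on both axes.

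Between the title sets themselves, 19 of the 47 members differed with group in the model. Of these, 8 were higher in lettered libraries (17% of tested members, 17.7% of all tested genes) and 11 were lower (23.4% of tested members, 10.9% of all tested genes). Pgls, Pdk3 and Idh2 had the largest ratios of lettered over unlettered libraries, and Eno1 (-2.35) and Aldoa (-1.66) the lowest among those called. Pklr was lower in the lettered libraries as well (log2 ratio -0.91, edgeR adjusted p = 0.00204).

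Libraries that decide a call are named here. Without null replicate 1, the only null library of the unlettered set, 5 members rose and 0 fell, namely Gpi1, Aldoa, Pgk1, Pkm2 and G6pdx, and Ldhb had an edgeR adjusted p of 0.0611. Without control replicate 3, the only control of the lettered set, G6pdx, Idh1, Ldha, Tpi1 and Mdh1 no longer passed. Without control replicate 2, Pfkl did not pass. Ldha was also lost without null replicate 2 or control replicate 1, and Tpi1 and Mdh1 without any 1 of the libraries. With scaling that leaves out globin genes, or without a filter on low counts, Tpi1 and Mdh1 did not pass either, and Tpi1 did not with DESeq2 size factors. Gpi1, Aldoa and Pkm2 passed in every fit that kept the title set term. Control replicate 1 and the 3 null libraries held Y-linked transcripts, which were close to 0 in control replicates 2 and 3. With their presence as a further term, 5 members rose and 1 fell, and 9 calls were lost, those of the X-linked Pgk1 and G6pdx and of the autosomal Ldha, Pgd, Taldo1, Idh1, Tpi1, Mdh1 and Pfkl.

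Summed markers of other blood and vessel cells lay higher in all null libraries than in all control libraries. Over 15 macrophage markers the summed level was 37.1 to 96.7 CPM in null libraries, against 2.40 to 11.1 CPM in control libraries, over 11 megakaryocyte markers 91.4 to 140.3 CPM, against 27.9 to 48.0 CPM, and over 12 endothelial markers 7.44 to 23.2 CPM, against 0.533 to 1.58 CPM. Most of the megakaryocyte sum in null libraries came from Itga2b (36.6, 67.1 and 50.1 CPM) and Itgb3 (48.1, 54.9 and 41.6 CPM). Gp9 of the megakaryocyte list lay lower in all null libraries than in all control libraries, and for Pf4 and Vwf the groups overlapped. In the macrophage list Csf1r, Cd68 and C1qb passed as higher. For Emr1, Cd14, Lyz2, Mrc1, Itgam, Fcgr1, C1qc and Mpeg1 of that list the groups overlapped. Most of the endothelial sum in null libraries came from Tek (12.7, 6.06 and 3.10 CPM), Pecam1 and Eng. For Cdh5, Kdr, Tie1, Flt1, Sox17 and Sox18 the groups overlapped. The macrophage and the endothelial list each held 9 markers with a mean under 1 CPM. The 11 granulocyte and mast cell markers summed to 73.2 to 118.3 CPM, against 0 to 2.88 CPM, most of it Ltf (84.9, 72.2 and 51.7 CPM in null libraries) and, in null replicate 3, Mpo (5.26, 1.03 and 61.3 CPM in null libraries). Elane, Cma1, Cpa3 and Mcpt4 of that list and Emcn and Cldn5 of the endothelial list had 0 reads in all libraries. Hepatic and mesenchymal markers stayed at or below 4.27 CPM in sum in either group. The part of such cells in the higher levels of Pkm2, Ldhb and the other members was not tested.

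Around these genes a further 82 genes of the same pathways had rows in the files, and 61 were tested. Of these 5 rose, or 8.20%, and 1 fell, or 1.64%, shares that lie near or below those of all tested genes. Slc16a3, the carrier that exports lactate from glycolytic cells, stood at 21.7, 62.9 and 42.02 CPM in null libraries, against 5.93, 3.30 and 14.97 CPM in control libraries, and rose by 2.03 on the log2 scale (SE 0.32, edgeR adjusted p = 0.00208). Prps2, which makes phosphoribosyl pyrophosphate from ribose phosphate, stood at 34.4, 45.6 and 40.5 CPM in null libraries, against 13.2, 14.9 and 10.7 CPM in control libraries (log2 ratio 1.65, edgeR adjusted p = 0.00367). Ketohexokinase Khk (log2 ratio 1.45, edgeR adjusted p = 0.0159), the oxoglutarate carrier Slc25a11 (0.89, edgeR adjusted p = 0.0351) and the mitochondrial pyruvate carrier subunit Mpc1, listed as Brp44l (0.71, edgeR adjusted p = 0.0172), rose as well. Pfkfb1, a bifunctional enzyme that sets the fructose bisphosphate activator of phosphofructokinase, fell by 0.92 on the log2 scale (edgeR adjusted p = 0.0492), at 28.1, 20.6 and 30.2 CPM in null libraries, against 76.9, 60.1 and 37.3 CPM in control libraries.

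Of 9 tested glucose, lactate and pyruvate carriers, 2 rose, the Slc16a3 and Mpc1 named above, and 0 fell. Among all tested genes 8.65% rose and 4.16% fell. The glucose carrier Slc2a1 stood at 229.7, 345 and 243 CPM in null libraries, against 152, 170.3 and 185 CPM in control libraries. Its groups did not overlap, and it missed the threshold narrowly (log2 ratio 0.59, SE 0.18, edgeR adjusted p = 0.0503). Slc16a1, the widely expressed lactate carrier, had 18.3, 41.5 and 58.1 CPM in null libraries, against 34.2, 26.5 and 81.3 CPM in control libraries (log2 ratio -0.72, edgeR adjusted p = 0.0682), and the pyruvate carrier subunit Mpc2, listed as Brp44, had a log2 ratio of 0.44 (edgeR adjusted p = 0.265). Tigar, a p53 target that dephosphorylates the same fructose bisphosphate activator and is listed as 9630033F20Rik, had 2, 45 and 15 reads in null libraries, against 0, 1 and 0 reads in control libraries, too few to be tested. Pfkfb3 had at most 5 reads in any library. The succinate dehydrogenase genes Sdha, Sdhb, Sdhc and Sdhd had log2 ratios of -0.21, 0.22, 0.01 and 0.04, none of which passed.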

How the data were processed

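The deposited values are gene counts, 1 table per library, with no normalization by the authors. Per the submitters' processing notes, FastQC, Trimmomatic 0.32, TopHat2 2.1.0, HTSeq 0.6.1 and edgeR were named, with build mm9; no strand setting is stated, so overlapping antisense reads cannot be told apart. Summary lines that name no gene were left out; in the unlettered set reads in no feature were 6.07% of entries in null replicate 1, against 42.9% in control replicate 1, the shallowest library, and 7.72% in control replicate 2, and reads without a unique alignment were 22.5 to 32.4%. The 25 symbols turned into dates in that set were mapped back.

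Counts were fitted in R 4.3.3 with edgeR 4.0.16: filterByExpr by group (10512 genes), TMM, estimateDisp, glmQLFit with robust=TRUE, glmQLFTest, 2-sided, Benjamini-Hochberg at 0.05. Title set and group were the terms, with 3 residual degrees of freedom, and the step was tested on simulated data. DESeq2 1.42.0, other scalings, other filters, group alone, a Y-linked term and 1 library left out were alternatives. A count of 3 corresponds to 0.140 to 0.387 CPM. Members, lists, named genes and tests were chosen with earlier results of these data known. Values in every library are given for called members, for members of the 15 pairs and for members apart between groups by a log2 ratio of at least 1; of the other pathway genes, those called are named, plus a fixed set of carriers and enzymes.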

Additional observations from a re-analysis of the deposited data

How the results depend on the processing

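None of the 15 called members changed direction under any alternative. With group alone, 1 member was higher and 0 lower, and 120 and 1 of all genes. With 1 library left out, 5 to 12 members were higher and 0 to 3 lower, and 162 to 869 of all genes higher and 40 to 734 lower; the smallest counts were without null replicate 1, a fit in which the unlettered set holds no null library. Without control replicate 2, 1 member was lower. With Y-linked transcripts as a term, 5 members were higher and 1 lower, and 161 and 62 of all genes; control replicate 1 is then the only control to match the null libraries. DESeq2's Wald test called 882 of all genes lower and 18 members lower in the lettered set, against 437 and 11, and without a filter on low counts 723 genes were lower. Without TMM the summed ratio of null to control was 1.67 for glycolysis, 1.78 for pentose phosphate and 1.25 for pyruvate dehydrogenase. For the citrate cycle the ratio pooled over title sets was 1.11 without TMM, against 0.973 with TMM. Within the unlettered and then the lettered set it was 0.932 and 1.19 without TMM, against 1.02 and 1.05 with TMM. Its direction thus depended on the scaling and on whether the title sets were pooled. Other scalings moved the median log2 ratio of all genes by at most 0.05. The cause of these differences was not tested. For the isoform ratios, leaving out null replicate 1 or control replicate 3 gives no value, as a title set then lacks a group. No paired analysis was possible because the labels give no replicate numbers. Depth limits Hk3, Eno2, Aldoc and Ldhb, whose control counts were 0 to 12.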
